A study of Homo sapiens with 36 samples.

Results

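The 39 genes described here encode the machinery of autophagy and of mitochondrial clearance, and they were examined for peaks of the transcription factor GATA2. They are the genes of the ULK1 initiation complex, of the lipid supply and PI3-kinase steps, of ATG8 conjugation and its proteases, the ATG8 family itself, cargo and mitophagy receptors, and the lysosomal genes TFEB, LAMP1 and LAMP2. A gene counted as having a peak in a library when the summit of at least 1 peak lay in its gene body or within 10 kb on either side. All 39 were found among 19970 protein-coding genes on chromosomes 1 to 22 and X, and their windows held 44 of the 17277 sites made by merging the peaks of all libraries. At least 1 library had a peak at 25 of the 39 genes (64.1%), against 8407 of all protein-coding genes (42.1%), and the median window was 56.2 kb for the 39 genes and 44.2 kb for all genes.

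Autophagy encloses cytoplasm or whole organelles in a double membrane and delivers them to the lysosome. The ULK1 kinase complex starts the process, a PI3-kinase complex marks the membrane, a ubiquitin-like conjugation system attaches ATG8 proteins (LC3 and GABARAP) to it, and receptors on the cargo bind those proteins. Reticulocytes use the pathway to remove their mitochondria as they mature into red cells, and the mitochondrial receptor BNIP3L, also called NIX, is needed for this step in the mouse.

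The libraries were CUT&Tag libraries, in which an antibody tethers a transposase to chromatin, from HUDEP-2 cells, a human line of immortalized erythroid progenitors. GATA2-low cells (genotype label GATA2+/-) carried a lentivirus for HA-T354M (GATA2 with an HA tag and the T354M change in a zinc finger), for HA-GATA2, or an empty vector, and wild-type cells carried the empty vector. Each of these 4 kinds of cells was profiled with anti-GATA2 and each of the 3 GATA2-low kinds with anti-HA, in 4 libraries each, 28 in all. All cells grew with erythropoietin, stem cell factor, doxycycline and dexamethasone and were sorted for GFP. The labels do not say whether the GATA2-low line is a single clone, and they give no separate culture for each replicate. A p-value therefore measures the spread between libraries alone, which can be technical. Replicate 1 of the GATA2-low empty-vector anti-GATA2 group carries a wild-type genotype label, and its title, GATA2 low, was followed.

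The lists differed in length, and the counts below move with that length. With anti-GATA2 they held 2779 to 6311 peaks for HA-T354M, 7064 to 12171 for HA-GATA2, 1823 to 3648 for GATA2-low empty vector and 6555 to 9121 for wild-type empty vector. With anti-HA they held 426 to 744 peaks for HA-T354M, 1912 to 6065 for HA-GATA2 and 1 to 6 for the empty vector, which has no tag. Read totals are unknown, and a background of fragments per window, recovered from the deposited values, stands in for depth. It was 0.42 to 0.587 in HA-T354M, 0.427 to 0.434 in HA-GATA2, 0.153 to 0.213 in GATA2-low empty-vector and 0.222 to 0.302 in wild-type anti-GATA2 libraries. Of 11 erythroid genes, on average 7.5 had a peak in HA-T354M, 10.5 in HA-GATA2, 7.25 in GATA2-low empty-vector and 7.75 in wild-type anti-GATA2 libraries. Of 11 lymphocyte genes, 0.25 had one in HA-T354M, 1.75 in HA-GATA2, 0 in GATA2-low empty-vector and 1.75 in wild-type libraries.

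Among the 39 genes, GATA2-low empty-vector libraries had a peak at fewer genes than wild-type libraries, HA-GATA2 libraries had as many as wild-type ones, and the mean of HA-T354M libraries lay between; with fragments thinned to a common background the HA-T354M and empty-vector means were 7.0 and 5.5. In GATA2-low empty-vector anti-GATA2 libraries 4, 4, 5 and 9 of the 39 genes had a peak, against 16, 13, 14 and 17 in wild-type libraries, in replicate order. Every GATA2-low value lay under every wild-type value, with means of 5.5 ± 2.38 and 15 ± 1.83 genes (SD, n = 4 each). HA-GATA2 anti-GATA2 libraries had 15, 14, 15 and 17 genes, a mean of 15.2 ± 1.26, and HA-T354M libraries had 11, 6, 10 and 11, a mean of 9.5 ± 2.38. No HA-T354M library reached the lowest HA-GATA2 library, but GATA2-low empty-vector replicate 4, with 9 genes, lay above HA-T354M replicate 2. With anti-HA, HA-T354M libraries had 0, 0, 2 and 2 genes, HA-GATA2 libraries 12, 10, 13 and 6, and the 4 empty-vector libraries none.

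As a share of the 39 genes these means were 24.4% for HA-T354M, 39.1% for HA-GATA2, 14.1% for GATA2-low empty vector and 38.4% for wild-type, with anti-GATA2. Of all protein-coding genes, 16.1% had a peak in HA-T354M, 26.4% in HA-GATA2, 8.58% in GATA2-low empty-vector and 25.4% in wild-type libraries. The shares of the 39 genes and of all genes were not tested against each other, and the windows of the 39 genes were longer, as given above. GATA2-low empty vector over wild-type was 0.367 for the 39 genes and 0.337 for all genes, and HA-GATA2 over empty vector was 2.77 and 3.07. With anti-HA the shares were 2.56% and 26.3% of the 39 genes for HA-T354M and HA-GATA2, and 2.35% and 12.9% of all genes.

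**Figure D1:**
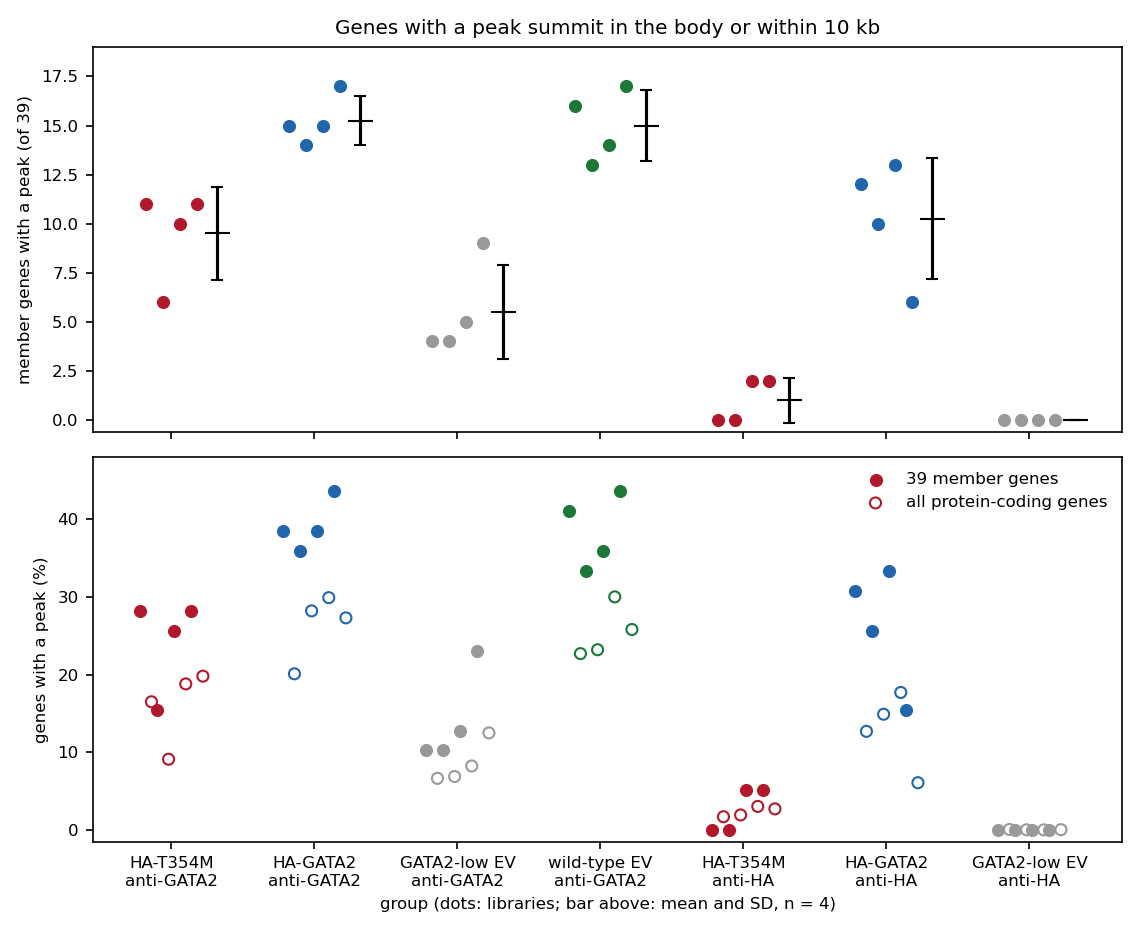
Number (top) and percent (bottom) of the 39 genes with a peak in each of 28 libraries by group, with all protein-coding genes as open circles; EV is the empty vector and the bars are mean and SD of 4 libraries. GATA2-low EV libraries reach 4 to 9 genes and wild-type EV libraries 13 to 17.

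By step of the pathway, a peak in at least 1 library stood at 4 of 5 initiation genes, 3 of 5 lipid supply genes, 4 of 6 conjugation genes, 3 of 4 ATG8 proteases, 1 of 4 PI3-kinase genes, 3 of 5 ATG8 family genes, 2 of 3 cargo receptors, 2 of 4 mitophagy genes and all 3 lysosomal genes. The 14 genes without a peak in any library were ATG2B, WIPI2, ATG10, ATG16L1, ATG101, ATG4B, BECN1, PIK3C3, UVRAG, GABARAPL1, MAP1LC3A, OPTN, BNIP3 and FUNDC1. BECN1, PIK3C3 and UVRAG are the core and a partner of the PI3-kinase complex, and ATG14, its autophagy-specific subunit, was the only one of those 4 with peaks. BNIP3 and FUNDC1 are mitophagy receptors. No peak was detectable at these genes at this depth, which does not show that GATA2 is absent there.

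Within a library, each peak was ranked by its −log10 q, and the percentile of a gene is that of its strongest peak in the list, with 100 the strongest. A percentile describes a peak within its own list, and lists of unequal length make it no measure of change. In the following, the values of a group are given in replicate order.

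**Figure D2:**
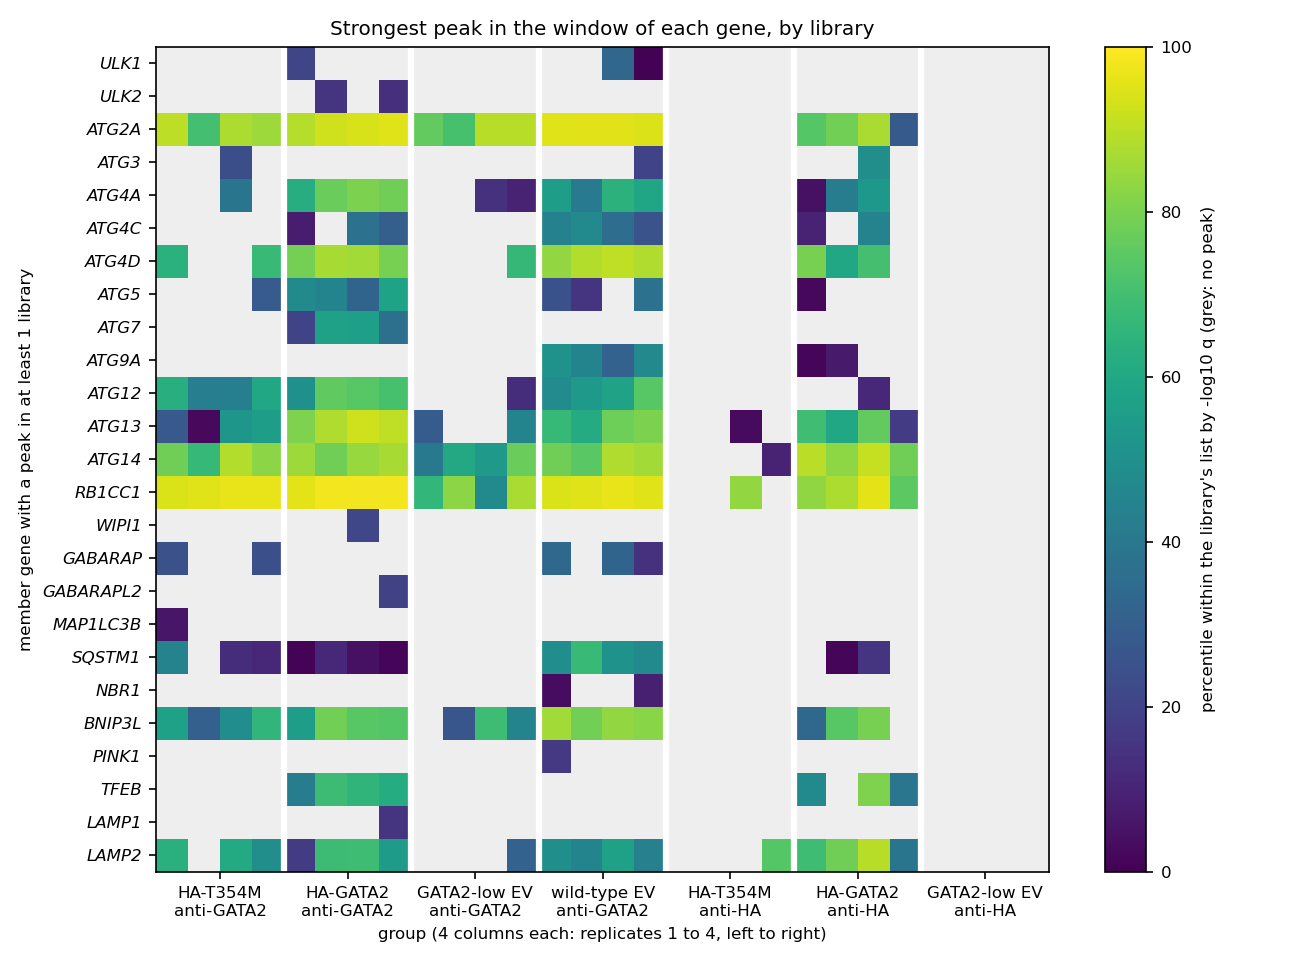
Percentile of the strongest peak of each of the 25 genes with a peak, in 28 libraries; grey means no peak and EV is the empty vector. RB1CC1, ATG14 and ATG2A keep a peak in all 16 anti-GATA2 libraries, and TFEB and ATG7 have peaks in HA-GATA2 libraries only.

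In the initiation complex, RB1CC1, the FIP200 scaffold of the ULK1 complex, held the site with the highest mean percentile of the 44, at 88.7. Its percentiles were 94.2, 95.2, 96.8 and 96.6 in HA-T354M, 95.8, 98.3, 98.1 and 98.1 in HA-GATA2, 66.3, 82.7, 47.7 and 87.4 in GATA2-low empty-vector and 94.4, 95.3, 96.5 and 95.0 in wild-type anti-GATA2 libraries. All 16 libraries had a peak, so no comparison with anti-GATA2 could pass the test. The fold over background at these summits, as deposited by the authors, was 24.3 to 34.9 in HA-T354M, 35.5 to 54.9 in HA-GATA2, 12.2 to 24.4 in GATA2-low empty-vector and 29.6 to 50.1 in wild-type libraries. With anti-HA, 1 of 4 HA-T354M libraries had a peak, at the 83.7 percentile, while HA-GATA2 libraries stood at 83.5, 87.6, 95.8 and 74.9. The site that carries these peaks lies inside the gene at chr8:52688220-52688858 (hg38) and was present in 21 libraries. Another RB1CC1 site, chr8:52712944-52713598, has its summit inside the gene, 1177 bp from its higher-coordinate boundary. No RB1CC1 start site was listed, so that boundary is not named as start or end. This site had a peak in 3 of 4 HA-T354M libraries and in 4 of 4 libraries of each of the other anti-GATA2 groups, but in 0 of 4 libraries of each anti-HA group.

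ATG13, the adaptor that links ULK1 to FIP200, had a peak in 4 of 4 HA-T354M libraries (28.1, 2.72, 52.9 and 56.0) and 4 of 4 HA-GATA2 libraries (80.5, 88.2, 92.7 and 90.4). It had one in 2 of 4 GATA2-low empty-vector libraries, replicates 1 and 4, at 29.0 and 45.2, and in 4 of 4 wild-type libraries at 67.1, 61.4, 78.0 and 80.3. With anti-HA the peak was in 1 HA-T354M library at the 3.0 percentile and in all HA-GATA2 libraries at 69.2, 59.7, 76.1 and 17.2. The main site, chr11:46611645-46612617, lies 5364 bp upstream of ATG13 and inside the neighbouring gene HARBI1. A site at the other end, chr11:46669190-46670065 inside ATG13, had a peak in 2 of 4 HA-T354M, 4 of 4 HA-GATA2, 1 of 4 GATA2-low empty-vector and 2 of 4 wild-type libraries. The kinase genes themselves had few peaks, and ATG101, another subunit, none. ULK1 had one in 1 of 4 HA-GATA2 and 2 of 4 wild-type libraries, and ULK2 in 2 of 4 HA-GATA2 libraries, none above the 33.0 percentile.

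ATG14 was the PI3-kinase gene with peaks, and it held 5 sites, more than any other of the 39 genes. Its strongest peak stood at 78.4, 67.0, 88.5 and 82.8 in HA-T354M, 85.3, 78.2, 84.7 and 87.0 in HA-GATA2, 40.6, 60.4, 53.9 and 77.0 in GATA2-low empty-vector and 78.5, 74.6, 88.2 and 86.1 in wild-type anti-GATA2 libraries. With anti-HA, 1 HA-T354M library had a peak at 9.65 and the HA-GATA2 libraries had 89.8, 83.1, 91.1 and 78.2. All 5 sites lie inside ATG14 and also inside the neighbouring annotation of FBXO34, so peaks cannot be assigned to a single gene. The sites differed between groups. At chr14:55383516-55384500 a peak was in 4 of 4 libraries of all 4 anti-GATA2 groups. At chr14:55382494-55382940, about 1 kb away, it was in 4 of 4 HA-T354M, 4 of 4 HA-GATA2, 0 of 4 GATA2-low empty-vector and 1 of 4 wild-type libraries. At chr14:55370864-55371424 it was in 1 of 4 HA-T354M, 4 of 4 HA-GATA2, 1 of 4 GATA2-low empty-vector and 4 of 4 wild-type libraries. The gene-level count of 4 of 4 in every anti-GATA2 group therefore covers sites of unlike pattern. These single sites were chosen after their values were seen and carry no test.

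**Figure D3:**
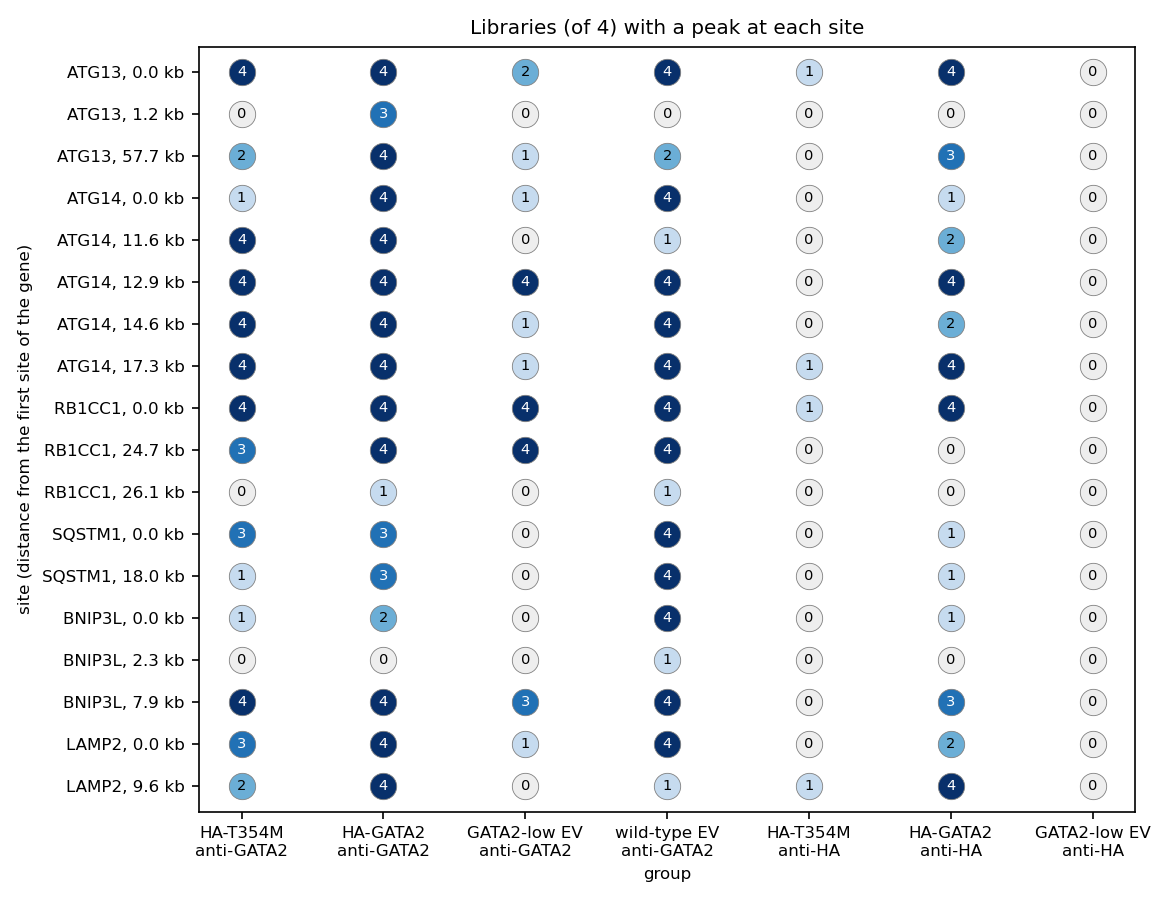
Libraries (of 4) with a peak at each site of ATG13, ATG14, RB1CC1, SQSTM1, BNIP3L and LAMP2, by group. These 6 are a selection, and other genes also had several sites. Labels give the distance along the chromosome from the first site of the gene, and EV is the empty vector. The 5 ATG14 sites differ in the GATA2-low EV group, where 1 has a peak in 4 of 4 libraries and 1 in none.

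In the lipid supply step, ATG2A, which moves lipid into the growing membrane, had a peak in all 16 anti-GATA2 libraries. Its percentiles were 90.0, 70.2, 87.7 and 85.5 in HA-T354M, 88.9, 92.6, 93.9 and 95.0 in HA-GATA2, 76.0, 70.8, 89.2 and 89.4 in GATA2-low empty-vector and 95.1, 95.6, 95.7 and 94.6 in wild-type libraries. With anti-HA no HA-T354M library had a peak, while HA-GATA2 libraries stood at 73.8, 78.9, 87.2 and 28.5. The site, chr11:64888774-64889469, lies 5394 bp outside the end of ATG2A and 9459 bp from EHD1, and both genes have it in their window. ATG9A, a membrane scramblase carried on vesicles, had a peak in 4 of 4 wild-type libraries at 51.1, 45, 31.3 and 46.9 and in none of the 4 GATA2-low empty-vector, HA-GATA2 or HA-T354M anti-GATA2 libraries. With anti-HA it was in 2 HA-GATA2 libraries, at 1.66 and 7.15. Its only site, chr2:219217713-219218416, lies inside ABCB6 and 1169 bp from ATG9A. WIPI1, a reader of the membrane mark, had a peak in a single HA-GATA2 library.

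In the conjugation system, ATG7, the activating enzyme, had a peak in 4 of 4 HA-GATA2 anti-GATA2 libraries and in no other library. The percentiles were 20.2, 57.4, 56.6 and 37.0, and the recovered fragments at the summit were 20, 36, 36 and 26. The site, chr3:11385323-11385704, lies inside the gene, 113149 bp from its start site, and anti-HA gave no peak there in any library. ATG5, part of the ligase for ATG8 proteins, had a peak in 1 of 4 HA-T354M libraries at 28.6 and in 4 of 4 HA-GATA2 libraries at 47.8, 45, 32.2 and 58.0. It was in 0 of 4 GATA2-low empty-vector libraries and in 3 of 4 wild-type libraries, at 25.1, 15 and 37.8 in replicates 1, 2 and 4. With anti-HA, 1 of 4 HA-GATA2 libraries had it, at 2.21. The ATG5 site, chr6:106315907-106316467, lies within the gene at one of its 2 listed start sites, and 8 of its summits fell 125 to 167 bp downstream of that start. ATG12, the ubiquitin-like partner of ATG5, had a peak in 4 of 4 HA-T354M libraries at 62.7, 42.9, 43.2 and 60.1 and in 4 of 4 HA-GATA2 libraries at 50.3, 75.7, 74 and 70.9. It was in 1 of 4 GATA2-low empty-vector libraries, replicate 4, at 12.9 and in 4 of 4 wild-type libraries at 48.2, 53.8, 57.8 and 74.1. The ATG12 site, chr5:115841640-115842460, lies upstream of its start site and inside AP3S1. ATG3, the E2-like enzyme, had a peak in 1 library each of HA-T354M, wild-type and anti-HA HA-GATA2, and ATG10 in none.

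The ATG4 proteases trim ATG8 proteins before conjugation and release them afterwards. No HA-T354M library had an ATG4C peak with anti-GATA2, and 3 of 4 HA-GATA2 libraries had one, at 7.72, 37.8 and 30.1 in replicates 1, 3 and 4. It was in 0 of 4 GATA2-low empty-vector and 4 of 4 wild-type libraries, at 43.9, 47.3, 35.7 and 25.6, and with anti-HA in 2 HA-GATA2 libraries at 9.56 and 44.9. The recovered fragments at the ATG4C summit were 25, 28, 23 and 20 in the wild-type libraries and 10 and 16 in the 2 anti-HA libraries. ATG4A had a peak in 1 of 4 HA-T354M libraries at 38.8, in 4 of 4 HA-GATA2 libraries at 62.2, 77.0, 80.1 and 78.4, in 2 of 4 GATA2-low empty-vector libraries at 14.4 and 9.91, and in 4 of 4 wild-type libraries at 56.1, 41.0, 64.4 and 58.7. With anti-HA, HA-GATA2 replicates 1 to 3 had the ATG4A peak at 4.49, 42.3 and 53.2. The strongest ATG4A site lies 130 bp outside the gene and inside PSMD10. ATG4D had a peak in 2 of 4 HA-T354M libraries at 63.8 and 67.2, in 4 of 4 HA-GATA2 libraries at 79.2, 87.1, 86.3 and 79.5, in 1 of 4 GATA2-low empty-vector libraries at 66.5 and in 4 of 4 wild-type libraries at 83.9, 88.5, 90.5 and 88.2. With anti-HA, 3 HA-GATA2 libraries had the ATG4D peak at 79.5, 59.7 and 70.7. ATG4B had none.

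ATG4C was the only one of the 39 genes with a peak summit inside a RefSeq promoter window, 250 bases before to 50 bases after a listed start, in at least 3 libraries and with a GATA motif in that window, so its window is printed here, chr1:62783882-62784181 on the plus strand (RefSeq, GRCh38.p14), 5′ to 3′, with the motif in capitals.
ATG4C: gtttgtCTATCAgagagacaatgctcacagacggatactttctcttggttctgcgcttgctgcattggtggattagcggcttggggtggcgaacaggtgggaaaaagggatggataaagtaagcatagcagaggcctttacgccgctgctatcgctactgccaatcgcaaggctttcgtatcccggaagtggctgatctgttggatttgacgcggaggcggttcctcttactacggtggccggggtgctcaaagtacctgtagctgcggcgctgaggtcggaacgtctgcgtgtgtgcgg
The capitals are the reverse complement of TGATAG, so the motif reads on the minus strand, and they begin 244 bp before the start. The motifs searched on both strands were the 4 runs of 6 letters with A or T, then GATA, then A or G. Of the 9 libraries with a peak there, 6 had the summit within 50 bp of the first base of the motif, and the median summit lay 6 bp before it. The other summits lay 118 to 131 bp beyond it. A match is a description of the letters and no measure of binding to them: 20.0% of all 22131 promoter windows of 15811 protein-coding genes hold at least 1 of these motifs, and 5 of 40 windows of 32 of the genes described here (12.5%) do. The windows at the ATG12 start and at the ATG5 start with summits hold none, and the summits there lay outside the window.

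**Figure D4:**
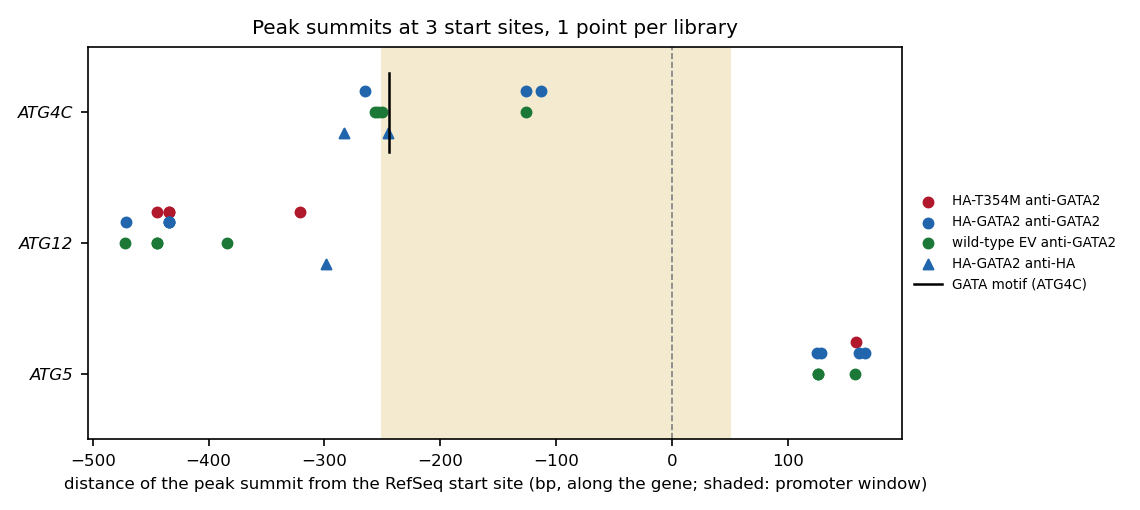
Distance of peak summits from the RefSeq start site of ATG4C, ATG12 and ATG5, 1 point per library whose peak overlaps the promoter window (shaded); EV is the empty vector and the bar marks the GATA motif of ATG4C. ATG4C summits lie 283 to 113 bp before the start and ATG5 summits 125 to 167 bp after it.

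The ATG8 family had weak peaks only. GABARAP had one in 2 of 4 HA-T354M libraries at 24.7 and 24.6, in 0 of 4 HA-GATA2 and 0 of 4 GATA2-low empty-vector libraries, and in 3 of 4 wild-type libraries at 33.9, 32.1 and 14.2. GABARAPL2 had a peak in a single HA-GATA2 library and MAP1LC3B, the common LC3 marker protein, in a single HA-T354M library. Of the cargo receptors, SQSTM1, the p62 receptor for ubiquitinated cargo, had a peak in 3 of 4 HA-T354M libraries, at 44.7, 13 and 11.3 in replicates 1, 3 and 4, and in 4 of 4 HA-GATA2 libraries at 0.833, 11.7, 4.49 and 1.63. It was in 0 of 4 GATA2-low empty-vector libraries and in 4 of 4 wild-type libraries at 49.1, 67.6, 50.8 and 47.9. With anti-HA, 2 HA-GATA2 libraries had it, at 1.49 and 15.4. These peaks fell at 2 sites. The site chr5:179803657-179804150, which lies inside MGAT4B, 2569 bp upstream of a listed SQSTM1 start, was in 3 of 4 HA-T354M, 3 of 4 HA-GATA2, 0 of 4 GATA2-low empty-vector and 4 of 4 wild-type anti-GATA2 libraries. The site chr5:179821523-179821901, inside SQSTM1, was in 1 of 4 HA-T354M, 3 of 4 HA-GATA2, 0 of 4 GATA2-low empty-vector and 4 of 4 wild-type libraries. The SQSTM1 peaks of the HA-GATA2 libraries were thus among the weakest of their lists. NBR1, a related receptor, had a peak in 2 wild-type libraries.

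Of the mitophagy genes, BNIP3L had a peak in all 4 HA-T354M libraries at 57.4, 30.6, 48.9 and 66.0 and in all 4 HA-GATA2 libraries at 55.8, 78.8, 74.1 and 73.1. It was in 3 of 4 GATA2-low empty-vector libraries, at 26.8, 68.9 and 45.1 in replicates 2 to 4, and in all 4 wild-type libraries at 86.1, 78.7, 83.6 and 82.2. With anti-HA it was in no HA-T354M library and in HA-GATA2 replicates 1 to 3 at 33.3, 74.2 and 79.3. The fragments at the BNIP3L summit were 25, 37 and 29 in those 3 GATA2-low libraries and 88, 72, 84 and 79 in the wild-type ones, and the authors' fold over the local background was 7.59 to 12.9 and 11.4 to 15.7. The main BNIP3L site, chr8:26390558-26391844, lies inside the gene and was present in 18 libraries. Another site, chr8:26382821-26383643, has its summit inside the gene, 295 bp from its lower-coordinate boundary. No BNIP3L start site was listed, so that boundary is not named as start or end. This site had a peak in 1 of 4 HA-T354M, 2 of 4 HA-GATA2, 0 of 4 GATA2-low empty-vector and 4 of 4 wild-type libraries. PINK1, the kinase that marks damaged mitochondria, had a peak in 1 wild-type library at 16.7, and BNIP3 and FUNDC1 had none.

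Of the lysosomal genes, TFEB, the master transcription factor of lysosome and autophagy genes, had a peak in 4 of 4 HA-GATA2 anti-GATA2 libraries and in none of the HA-T354M, GATA2-low empty-vector or wild-type libraries. Its percentiles were 41.9, 68.5, 65.4 and 62.0, with 36, 54, 51 and 48 recovered fragments at the summit. With anti-HA it was in HA-GATA2 replicates 1, 3 and 4, at 47.3, 80.7 and 39.4, and in no HA-T354M or empty-vector library. Both antibodies thus gave a peak at TFEB in HA-GATA2 cells, while at ATG7 anti-GATA2 alone did. The TFEB site, chr6:41730586-41731010, lies inside the gene, 3648 bp downstream of a listed start. LAMP2, a lysosomal membrane protein, had a peak in 3 of 4 HA-T354M libraries at 63.3, 61.3 and 49.5, in 4 of 4 HA-GATA2 libraries at 17.7, 68.7, 68.9 and 54.9, in 1 of 4 GATA2-low empty-vector libraries at 31.5 and in 4 of 4 wild-type libraries at 49.7, 45.3, 57.3 and 43.6. With anti-HA, LAMP2 had a peak in 1 HA-T354M library at 73.6 and in 4 HA-GATA2 libraries at 68.9, 78.5, 89.4 and 38.9. The anti-GATA2 values belong to chrX:120454084-120454511, where 2 of 4 HA-GATA2 libraries had an anti-HA peak, at 44.9 to 46.9. The anti-HA values belong to another site inside the gene, chrX:120463438-120464683. There anti-GATA2 gave a peak in 2 of 4 HA-T354M, 4 of 4 HA-GATA2 (2.87 to 23.4), 0 of 4 GATA2-low empty-vector and 1 of 4 wild-type libraries. LAMP1 had a peak in 1 HA-GATA2 library.

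The first comparison asked which of these genes lose their peak when GATA2 is low. ATG4C, ATG9A and SQSTM1 lost it, with a peak in 0 of 4 GATA2-low empty-vector and 4 of 4 wild-type libraries (Fisher's exact test, p = 0.0286, adjusted p = 0.0323). These were 3 of 39 genes (7.69%), against 5.49% of all protein-coding genes. None went the other way, as 0.00501% of all genes did. In all, 15 of the 39 genes had a peak in fewer GATA2-low than wild-type libraries and 0 in more, against 29.4% and 0.25% of all genes. The median difference in libraries with a peak was 0 for the 39 genes and for all genes, here and in the 6 other comparisons. The test is two-sided per gene, and its Benjamini-Hochberg adjustment runs over all genes that had one in exactly 4 of the 8 libraries, the only ones that a split of 4 against 0 can come from; 88.5% of those genes passed. With the adjustment run over every gene that has a peak in at least 1 of the 8, no gene passes in any comparison (Fisher's exact test, adjusted p = 0.181 here), with 3 of the 39 genes under an unadjusted 0.05. ATG9A did not pass with thinned fragments or when a peak went to its nearest gene alone. ATG4C and ATG9A did not with a −log10 q of 15 or more, which added ATG4A, ATG12 and LAMP2. None of the 3 passed with lists of equal length. Without GATA2-low replicate 1, 2 or 3 no gene passes, and without replicate 4 ATG4D, ATG12 and LAMP2 are added, for 6.

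The next comparison asked which peaks HA-GATA2 adds to GATA2-low cells. ATG5, ATG7, SQSTM1 and TFEB gained one, with 4 of 4 HA-GATA2 and 0 of 4 empty-vector anti-GATA2 libraries (Fisher's exact test, adjusted p = 0.032). These were 4 of 39 genes (10.3%), against 7.77% of all genes and 89.3% of those that had one in exactly 4 of the 8 libraries, and none lost one, against 0% of all genes. In all, 16 of the 39 genes (41.0%) had a peak in more HA-GATA2 than empty-vector libraries, against 27.5% of all genes. None of the 39 had one in fewer, against 0.431% of all genes. Among the 3 genes called in the first comparison, SQSTM1 was at 4 of 4 HA-GATA2 libraries only when its 2 sites were counted together (3 of 4 at each), ATG4C was at 3 of 4 and ATG9A at 0 of 4. Both comparisons share the GATA2-low empty-vector libraries. ATG7 and TFEB had no peak in wild-type libraries, so HA-GATA2 libraries held peaks there that the wild-type lists did not. The background was 0.427 to 0.434 in HA-GATA2 and 0.222 to 0.302 in wild-type libraries, and these 2 groups were not tested against each other. Against empty vector, ATG5 and TFEB still passed with the fragments thinned to a common background, in 1 random draw, and ATG7 and SQSTM1 did not. The same held with a −log10 q of 15 or more. SQSTM1 also did not pass with windows of 2 kb or the nearest gene alone, and none of the 4 did with lists of equal length. ATG4A was added with the nearest gene alone, and ATG4A and ATG12 with a −log10 q of 15 or more. Without empty-vector replicate 4 the number was 7.

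For HA-T354M against empty vector with anti-GATA2, none of the 39 genes was at 4 of 4 against 0 of 4 libraries in either direction, as 1.06% of all genes were upwards (0 calls by Fisher's exact test, 0 also under an unadjusted 0.05). Of the 39 genes, 10 had one in more HA-T354M than empty-vector libraries and 1, ATG4A, in fewer. These were 25.6% and 2.56% of the 39 genes, against 16.7% and 1.75% of all genes. The most different were ATG12, with a peak in 4 HA-T354M libraries and 1 empty-vector library, and SQSTM1, with 3 and 0.

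HA-T354M against HA-GATA2 with anti-GATA2 set the mutant beside the unmutated protein. At ATG7 and TFEB, 0 of 4 HA-T354M libraries and 4 of 4 HA-GATA2 libraries had a peak (Fisher's exact test, adjusted p = 0.0441), 2 of 39 genes (5.13%) against 2.93% of all genes and 64.8% of those that had one in exactly 4 of the 8 libraries. None went the other way, and 0% of all genes did. Of the 39 genes, 13 had a peak in fewer HA-T354M libraries and 3, ATG3, GABARAP and MAP1LC3B, in more. These were 33.3% and 7.69% of the 39 genes, against 21.9% and 3.37% of all genes. The backgrounds of the 2 groups overlapped (0.42 to 0.587 in HA-T354M and 0.427 to 0.434 in HA-GATA2). ATG7 and TFEB passed with thinned fragments, but thinning changed nothing in this comparison and is no check on depth. ATG7 did not pass with a −log10 q of 15 or more, and neither gene did with lists of equal length. ATG4A was called with the nearest gene alone and with lists of equal length. Without any of the 8 libraries no gene passes.

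With anti-HA, HA-GATA2 libraries had a peak in 4 of 4 libraries at ATG2A, ATG13, ATG14, RB1CC1 and LAMP2, and the empty-vector libraries in 0 of 4 (Fisher's exact test, adjusted p = 0.0286). These 5 of 39 genes (12.8%) stand against 5.75% of all genes and 99.8% of those that had one in exactly 4 of the 8 libraries. In HA-GATA2 cells all 5 were also at 4 of 4 libraries with anti-GATA2. With anti-HA, 15 of the 39 genes (38.5%) had a peak in at least 1 more HA-GATA2 library than empty-vector library, against 20.0% of all genes. ATG13 did not pass with windows of 2 kb, a −log10 q of 15 or more or the nearest gene alone, and ATG2A did not with the first 2 of these. Without HA-GATA2 replicate 4, whose list was the shortest, ATG4A, ATG4D and BNIP3L are added, for 8, and without any empty-vector library none passes. HA-T354M against empty vector gave no gene with 4 of 4 against 0 of 4, against 0.981% of all genes (0 calls by Fisher's exact test, 0 also under an unadjusted 0.05). ATG13, ATG14, RB1CC1 and LAMP2 each had a peak in 1 HA-T354M library. HA-T354M against HA-GATA2 gave ATG2A at 0 of 4 and 4 of 4 libraries (Fisher's exact test, adjusted p = 0.0346), 1 of 39 genes (2.56%) against 2.82% of all genes and 82.7% of those that had one in exactly 4 of the 8 libraries. With anti-GATA2 the same ATG2A site was present in every HA-T354M library, and in every GATA2-low empty-vector library too. ATG2A did not pass with windows of 2 kb, a −log10 q of 15 or more or lists of equal length. Without any HA-T354M library ATG2A no longer passes, and without HA-GATA2 replicate 4 the number is 4.

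The numbers were also compared at equal list length. When each list was shortened to the number of peaks in the shortest list of the comparison, with anti-GATA2, the mean numbers of the 39 genes were 4.0 in GATA2-low empty-vector and 5.25 in wild-type libraries. They were 4.25 in HA-GATA2 and 4.0 in empty-vector, 4.0 in HA-T354M and 4.0 in empty-vector, and 6.25 in HA-T354M and 6.5 in HA-GATA2 libraries. Equal lengths remove a difference in the number of bound sites by construction, along with any in depth. With the fragments thinned to a common background, which matches the estimated background and not the length, the means were 5.25 in GATA2-low empty-vector and 13 in wild-type libraries. They were 12.5 in HA-GATA2 and 5.5 in empty-vector, 7.0 in HA-T354M and 5.5 in empty-vector, and 9.5 in HA-T354M and 15.2 in HA-GATA2 libraries. For HA-T354M against HA-GATA2 these means equal those without thinning, so thinning was no check on depth there.

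**Figure D5:**
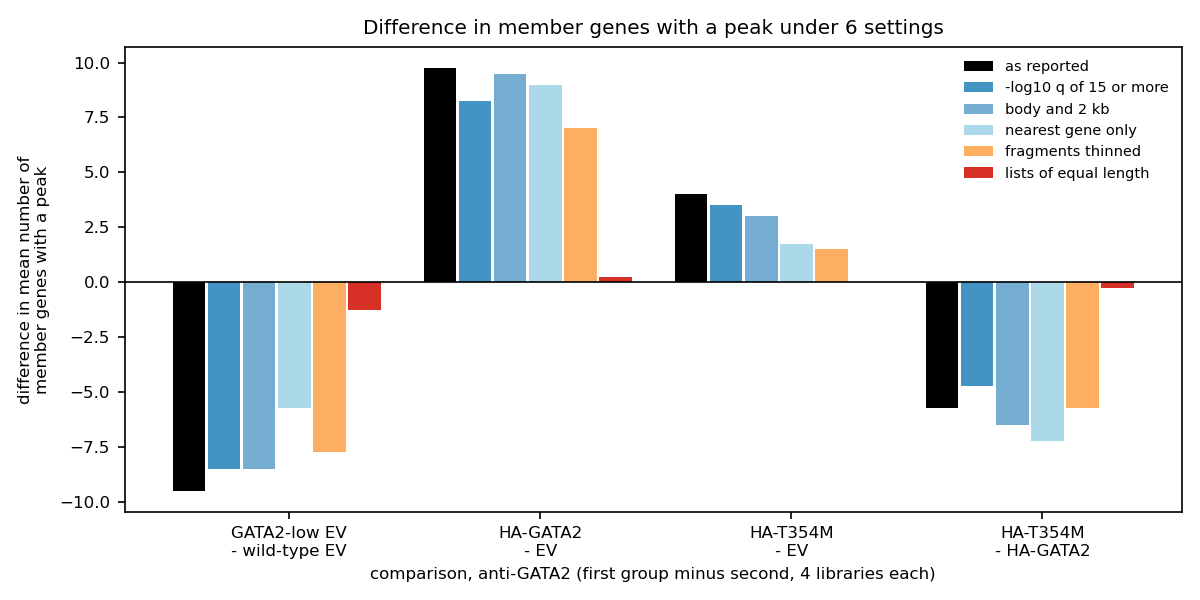
Difference in the mean number of the 39 genes with a peak, first group minus second, for the 4 anti-GATA2 comparisons under 6 settings; EV is the empty vector. Thinned fragments keep the direction of all 4, but for HA-T354M minus HA-GATA2 thinning changed nothing and is no check on depth. Lists of equal length bring all 4 to between -1.25 and 0.25.

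Of the 44 sites, 22 were inside the gene and 22 outside, with 13 of these outside ones inside another protein-coding gene, and 10 of the 34 sites at genes with a listed start lay within 1 kb of it. Of 355 summits in the 39 windows, 62.3% lay inside the gene, and of those with a listed start 22.9% lay within 1 kb of it. Over all protein-coding windows these were 59.5% of 111409 summits and 20.0%. No test was made of these shares. Since 10 kb windows take in neighbours, a peak counted for a gene can belong to its neighbour.

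A second list of 56 genes of the same pathway, none of them among the 39, was counted in the same way. On average 27.7% of these 56 had a peak in HA-T354M, 44.2% in HA-GATA2, 17.9% in GATA2-low empty-vector and 37.9% in wild-type anti-GATA2 libraries. FLCN and FNIP1, partners in amino acid sensing at the lysosome, and SNAP29, a fusion protein of autophagosomes, had a peak in 0 of 4 GATA2-low empty-vector and 4 of 4 wild-type libraries, 5.36% of the list against 5.49% of all genes. Gained with HA-GATA2 over empty vector were 5 of 56 (8.93%) against 7.77% of all genes, among them DDIT4, an inhibitor of mTORC1, and the Rag GTPases RRAGA and RRAGC, and 3, among them DDIT4 and RRAGC, were at 0 of 4 HA-T354M against 4 of 4 HA-GATA2 libraries, as 2.93% of all genes were. With anti-HA, HA-GATA2 over empty vector had 6 of 56 (10.7%) against 5.75% of all genes, among them EPG5, a tether of autophagosomes, MITF, a relative of TFEB, FOXO3, a regulator of autophagy genes, and CTSB, a lysosomal protease. HA-T354M over empty vector had 2 of 56 (3.57%), CTSB among them, against 0.981% of all genes. MITF, FOXO3 and CTSB had a peak in all 16 anti-GATA2 libraries.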

How the data were processed

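Peak lists of 28 CUT&Tag libraries were used, 4 in each of 7 groups named from the library titles, out of 36 libraries described; the 8 IgG libraries were not used here. Per the submitters' processing notes, MACS2 2.2.7.1, Bowtie2 2.2.5, cutadapt 3.3, deepTools 3.5.3 and FastQC were used with build hg38; the sources used here give no settings. The authors deposited 1 list per library, with a fold (a linear ratio of enrichment), −log10 p and −log10 q values and a score per peak. These are the authors' own values. The 39 genes and the other lists were chosen with earlier results of these data known.

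Of 120964 peaks, 455 outside chromosomes 1 to 22 and X were left out. Gene positions and promoter windows came from RefSeq tables of GRCh38.p14; all 39 genes matched by symbol, and 32 had a promoter window. Sites are merged peaks (overlap of at least 1 bp). Fisher's exact test compared, gene by gene, how many libraries of each group had a peak, called at an adjusted p of 0.05; the number of the 39 genes per library carries no test. Fragments and background were solved from fold and −log10 p on the assumption of a Poisson background, matching within 0.03% for 98.1% to 99.9% of peaks in a library with an estimate; the scale was 1 except in anti-GATA2 libraries of HA-T354M and HA-GATA2 (0.5 to 0.706). Tests were checked on simulated data. Values by library are given for genes that differ by at least 3 of 4 libraries in a comparison, genes with a peak in 4 of 4 libraries of at least 4 groups, TFEB and the mitophagy genes, and up to 10 of the other list. Python 3.11.15 with scipy 1.17.1 was used. Alternatives were a −log10 q of 15, windows of 2 kb, the nearest gene only, lists of equal length, thinned fragments, another adjustment, a replicate block and leaving out each library. Thinning was 1 random draw per comparison, and peaks without a recovered fragment number were kept.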

Additional observations from a re-analysis of the deposited data

Results flagged for a closer look

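Among 46 groups of 4 values (numbers of the 39 genes with a peak, and percentiles of genes with a peak in 4 of 4 libraries), 2 held a library far from the other 3, and chance gives about 1 in 20. RB1CC1 stood at the 95.8 percentile in GATA2-low HA-GATA2 anti-GATA2 replicate 1, against 98.1 to 98.3 in the other 3. SQSTM1 stood at the 67.6 percentile in wild-type empty-vector anti-GATA2 replicate 2, against 47.9 to 50.8 in the other 3.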

How the results depend on the processing

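No direction reversed in any alternative. For the difference in the number of the 39 genes with a peak, 84 of 94 alternatives stayed within the spread between libraries. These 84 include the replicate block, which keeps the difference by construction. They also include every alternative with 1 library left out, 8 per comparison. Thinned fragments for HA-T354M against HA-GATA2 with anti-GATA2, a setting that changed nothing, are among them too. The 10 that moved were all among the remaining settings. Lists of equal length gave -1.25 (GATA2-low empty vector minus wild-type), 0.25 (HA-GATA2 minus empty vector), 0 (HA-T354M minus empty vector) and -0.25 (HA-T354M minus HA-GATA2) with anti-GATA2, and -0.25 (HA-T354M minus HA-GATA2) with anti-HA. Thinned fragments gave 7.0 for HA-GATA2 minus empty vector and 1.5 for HA-T354M minus empty vector. The nearest gene alone gave -5.75 for GATA2-low empty vector minus wild-type and 8.0 for anti-HA HA-GATA2 minus empty vector, which was 7.5 with a −log10 q of 15 or more. Apart from equal length, whose construction removes the difference, the cause was not tested.

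In the 5 comparisons with calls, 27 of 68 alternatives other than the replicate block still called every reported gene. These include thinned fragments for HA-T354M against HA-GATA2 with anti-GATA2, a setting that changed nothing. The number of calls stayed within 1.5 times in 30 of the 68 alternatives, and in 8 of these 30 at least 1 reported gene was lost. It was 0 in all 5 comparisons with calls under the adjustment over any peak. Lists of equal length gave 0, 0 and 1 (ATG4A) for GATA2-low empty vector against wild-type, HA-GATA2 against empty vector and HA-T354M against HA-GATA2, and 0 for the last with anti-HA, where windows of 2 kb also gave 0. Thinned fragments gave 2 for HA-GATA2 against empty vector, a −log10 q of 15 gave 1 for HA-T354M against HA-GATA2 with anti-GATA2, and for anti-HA HA-GATA2 against empty vector that setting and windows of 2 kb gave 3 each.

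With 1 library left out, the calls ranged over 0 to 6 and the differences over -10.7 to -8.83 for GATA2-low empty vector against wild-type, 4 to 7 and 9.17 to 10.9 for HA-GATA2 against empty vector, 0 and 3.5 to 5.17 for HA-T354M against empty vector, and 0 and -6.25 to -4.58 for HA-T354M against HA-GATA2. With anti-HA they were 0 to 8 and 9.33 to 11.7 for HA-GATA2 against empty vector, 0 and 0.667 to 1.33 for HA-T354M against empty vector, and 0 to 4 and -10.7 to -8.33 for HA-T354M against HA-GATA2. Leaving out 1 library does not raise the smallest p that can be reached. More genes can then reach it, so the adjustment runs over more genes.

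The replicate block, an exact sign test over the 4 same-numbered pairs, gave 0 calls throughout, since its smallest p is 0.125, and left the differences as reported. Same-numbered libraries did not deviate together in which genes had a peak (correlations of -0.0886 to 0.101). These values do not settle whether the numbers pair the libraries, for instance by a shared culture or preparation.

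Read totals are unknown, and the few peaks of the empty-vector anti-HA lists allow no depth estimate, thinning or equal lengths. A gene without a peak is one where none was detectable.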
